A study of Mus musculus with 7 samples.

Results

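Genes of embryonic macrophages and platelets were examined in whole mouse embryos at E11.5, 3 SLMAP3 KO and 4 WT. The set held 10 genes, Csf1r, Ptprc, Cx3cr1, C1qa, C1qb, C1qc, Aif1, Lyz2, Mrc1 and Pf4, which were taken by symbol from the 25461 genes of the deposited table, and all 10 were found. The KO embryos (SLMAP3-/-) and the WT embryos were of the B6C3F1 strain and received no treatment. The KO allele lacks exon 3 of Slmap, which was flanked by loxP sites and removed with CMV-cre, a cre driven in all tissues. The cre transgene was then bred out, so that the deletion was present in every cell of a KO embryo and was not directed to blood cells. Exon 3 is used by the SLMAP3 isoform and not by SLMAP1 and SLMAP2, which remain in the KO. Each embryo was a separate library, and its tail had been taken for genotyping. The KO embryos are named KOAC8-6, KOAC10-5 and KOAC10-8, and the WT embryos KOAC8-1, KOAC10-7, KOAC9-1 and KOAC10-2. What the prefixes KOAC8, KOAC9 and KOAC10 stand for is not given by the labels, and KOAC9 holds 1 WT embryo only.

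Macrophages of the early embryo arise from the yolk sac and settle in most tissues, including the brain, where they become microglia. They depend on the receptor CSF1R, take up dying cells, and are a main source of the complement component C1q. Megakaryocytes appear in the yolk sac and later in the fetal liver, and load the granules of platelets with chemokines such as PF4. Pf4 RNA is also known from some macrophages. In RNA of a whole embryo, fewer cells of a type and less RNA per cell cannot be told apart.

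Levels are given in FPKM, the fragments of a gene divided by its length and by the depth of the library, so that levels can be compared between genes of different length. The relative depth of the embryos, taken from the steps between low values, ran from 0.813 in the WT embryo KOAC10-2 to 1.23 in the WT embryo KOAC9-1. This put the reads behind a member at an estimated 81 for Aif1 in KOAC10-7, the fewest, and 1999 for Csf1r in KOAC9-1, the most. Slmap, the targeted gene, was measured first as a check of the genotype labels. Its level was 19.6, 16.0 and 16.6 FPKM in the KO embryos and 31.2, 23.9, 29.1 and 22.8 FPKM in the WT embryos. The genotypes did not overlap, and the KO mean was 65.1% of the WT mean (p = 0.0286 by a two-sided exact permutation test, which cannot go lower with 3 against 4 embryos). On the log2(FPKM + 1) scale the difference was -0.59 (SE 0.13, limma adjusted p = 0.278).

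All 10 members had a level above 0 in every embryo, while the wider lists held genes near 0. Among 24 other macrophage genes, the surface protein gene Adgre1 averaged 1.70 FPKM over the 7 embryos and the lysosomal gene Cd68 5.34 FPKM. The receptor genes Cd163 and Timd4 in that list averaged 0.0210 and 0.167 FPKM. Spi1, which encodes the myeloid transcription factor PU.1, lay between 1.47 and 2.73 FPKM. Ppbp, a platelet chemokine gene beside Pf4 on chromosome 5, lay between 3.49 and 17.1 FPKM. Rag1, a gene of developing lymphocytes, was low at a mean of 0.362 FPKM.

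In the GENCODE M21 annotation of GRCm38, the C1q genes lie side by side on the minus strand of chromosome 4. C1qb spans chr4:136880129-136886187, C1qc chr4:136889804-136893065 and C1qa chr4:136895917-136898803, together 18675 bp. Csf1r lies at chr18:61100598-61132149 on the plus strand and Mrc1 at chr2:14229392-14332057 on the plus strand. Cx3cr1 lies at chr9:119901616-120069879, Ptprc at chr1:138062861-138175708, Lyz2 at chr10:117277331-117282321 and Aif1 at chr17:35170991-35176068, all on the minus strand. Pf4, the shortest of the set with 949 bp, lies at chr5:90772435-90773383 on the plus strand. The exons of Csf1r overlap those of Hmgxb3 on the other strand, and 14.3% of the 50-base stretches of Csf1r transcripts are shared with it. Since the library kit does not mark strand, reads of Csf1r and Hmgxb3 (mean 11.7 FPKM) may be mixed there. Lyz2 shares 15.4% of its stretches with its copy Lyz1, which was listed at 0.0631 to 1.58 FPKM. No other pair shared more than 0.674% of a member's stretches, the value for Cx3cr1 and Gm33858.

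Pf4 was the most abundant of the 10 genes, with a mean of 29.4 FPKM over the 7 embryos. C1qb followed at 11.2 FPKM, C1qa at 7.99, C1qc at 7.25, Lyz2 at 5.78, Csf1r at 4.94, Mrc1 at 3.64, Cx3cr1 at 3.10, Aif1 at 3.00 and Ptprc at 0.839 FPKM. The order of neighbours held in all 7 embryos, except for C1qa over C1qc and C1qc over Lyz2, which held in 6 each, and Cx3cr1 over Aif1, which held in 5. The ranges over embryos of neighbours in this order overlapped, apart from those of Aif1 and Ptprc. The plot of levels by embryo shows this order.

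**Figure D1:**
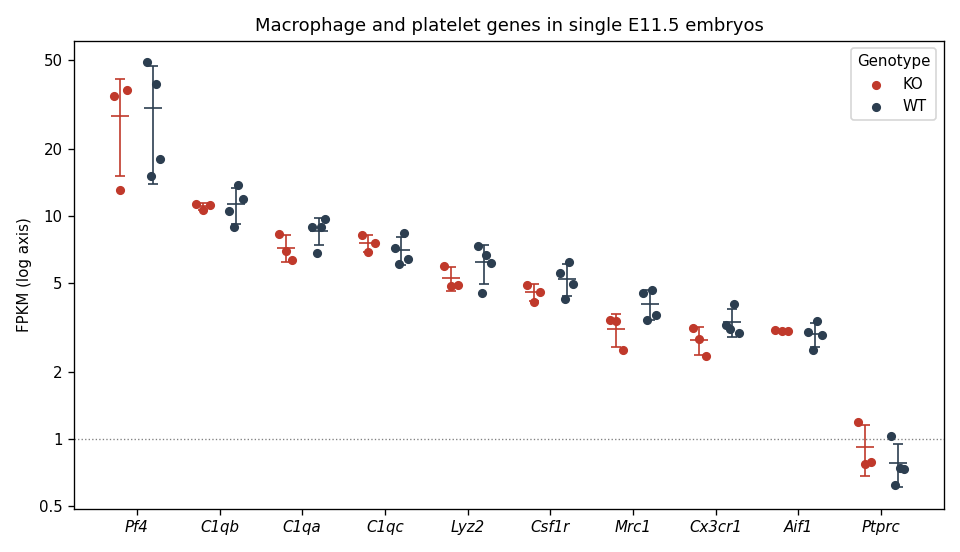
Level of each of the 10 genes in FPKM (log axis) in the 3 KO and 4 WT embryos, with points for embryos and bars for the mean and SD of each genotype. Pf4 spread from 13.1 to 49.0 FPKM and the other genes held closer together, and the dotted line marks the minimum mean of 1 FPKM for testing.

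None of the 10 genes differed between KO and WT embryos beyond the adjusted threshold. The limma fit covered the 16095 genes whose mean reached 1 FPKM, and 9 of the 10 members were among them, Ptprc being below that level. An adjusted p under 0.05 was reached by 0 of the 9 members and by 6 of all genes tested, 0.0373%. At an unadjusted p under 0.05 the counts were 0 of 9 and 11.5% of all genes. The log2 differences of KO against WT were negative for 7 members and positive for 2, Aif1 and C1qc. They ran from -0.30 for Mrc1 to 0.094 for C1qc, with a median of -0.16 beside 0.011 over all genes tested, and without Pf4 the median was -0.18. The levels of the 9 members other than Pf4 summed to 45.4 ± 3.57 FPKM in KO (SD, n = 3) and 49.5 ± 6.88 FPKM in WT embryos (SD, n = 4). Within the 2 KOAC8 embryos, 1 of each genotype, the log2 differences ran from -0.50 for Pf4 to 0.16 for C1qc. Within the KOAC10 embryos, 2 of each, they ran from -0.26 for C1qa to 0.39 for Pf4. The sign was the same in both for all members but Pf4, and C1qb was positive in both, at 0.089 and 0.073.

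**Figure D2:**
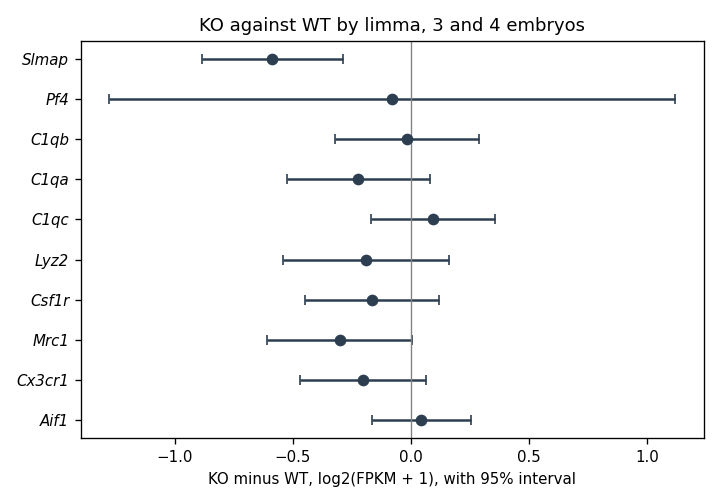
Difference of KO against WT embryos in log2(FPKM + 1) for Slmap and the 9 tested members, with the 95% interval of the limma fit on 3 KO and 4 WT embryos. The interval of Slmap lies below 0, those of all 9 members include 0, and that of Pf4 is the widest, from -1.28 to 1.12.

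The genes of C1q encode the A, B and C chains, which assemble in equal numbers into the molecule that starts the classical complement pathway. C1qa measured 8.33, 6.95 and 6.33 FPKM in KO embryos and 8.89, 6.85, 8.91 and 9.66 FPKM in WT embryos. The genotypes overlapped because the WT embryo KOAC10-7 lay below 2 of the KO embryos, and the difference was -0.22 (SE 0.13, adjusted p = 0.539). C1qb measured 11.3, 10.6 and 11.2 FPKM in KO and 10.6, 8.94, 13.8 and 11.9 FPKM in WT embryos. The KO values lay inside the WT range, at a difference of -0.016 (95% interval -0.32 to 0.29). C1qc measured 8.17, 6.87 and 7.57 FPKM in KO and 7.18, 6.10, 8.42 and 6.43 FPKM in WT embryos. These also lay inside the WT range, with a difference of 0.094 (95% interval -0.17 to 0.36).

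The ratios between the chains differed from embryo to embryo. C1qc over C1qa, in FPKM, was 0.981, 0.988 and 1.20 in the KO embryos and 0.807, 0.890, 0.944 and 0.666 in the WT embryos. All KO embryos were above all WT embryos in this ratio (exact permutation test, p = 0.0571, adjusted over 10 ratios 0.286). C1qb over C1qa ran from 1.19 to 1.77 and C1qb over C1qc from 1.38 to 1.85, both with overlapping genotypes. Aif1 over Csf1r was the other ratio without overlap, at 0.678 ± 0.0595 in KO (SD, n = 3) and 0.567 ± 0.0288 in WT embryos (SD, n = 4; exact permutation test, p = 0.0286, adjusted over 10 ratios 0.286).

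Among the receptors, CSF1R carries the survival signal of macrophages, CX3CR1 binds fractalkine and marks microglia, and MRC1 is a mannose receptor of tissue macrophages. Csf1r measured 4.92, 4.12 and 4.57 FPKM in KO and 5.56, 4.23, 6.21 and 4.94 FPKM in WT embryos. Its genotypes overlapped, and the difference was -0.16 (SE 0.12, adjusted p = 0.619). Cx3cr1 measured 3.16, 2.81 and 2.36 FPKM in KO and 3.24, 3.10, 4.03 and 3.00 FPKM in WT embryos. Only the KO embryo KOAC8-6 reached into the WT range, and the difference was -0.20 (SE 0.11, adjusted p = 0.534).

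Mrc1 was the only member whose genotypes did not overlap, as was also so for 11.6% of all genes tested. It measured 3.40, 3.39 and 2.49 FPKM in KO embryos and 4.52, 3.43, 4.63 and 3.60 FPKM in WT embryos. The KO mean was 76.5% of the WT mean, but the highest KO embryo, at 3.402 FPKM, and the lowest WT embryo, at 3.426 FPKM, were nearly level. The difference of -0.30 (SE 0.13, 95% interval -0.61 to 0.0069) did not pass the limma test (adjusted p = 0.443). It was -0.33 within the KOAC8 embryos and -0.21 within the KOAC10 embryos.

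Lyz2 encodes a lysozyme of phagocytes, Aif1 the calcium-binding protein IBA1 of microglia and macrophages, and Ptprc the phosphatase CD45 of all white blood cells. Lyz2 measured 5.99, 4.85 and 4.91 FPKM in KO and 7.36, 4.52, 6.70 and 6.16 FPKM in WT embryos, with overlap and a difference of -0.19 (SE 0.15, adjusted p = 0.641). Aif1 was the steadiest member, at 3.08, 3.06 and 3.04 FPKM in KO and 3.00, 2.51, 3.38 and 2.92 FPKM in WT embryos. Its KO values lay inside the WT range (difference 0.044, SE 0.089, adjusted p = 0.875). Ptprc, below the level for testing, measured 1.19, 0.773 and 0.788 FPKM in KO and 1.03, 0.619, 0.739 and 0.737 FPKM in WT embryos. Its genotypes overlapped as well (exact permutation test, p = 0.4).

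Apart from Pf4, the members differed between embryos by 1.35-fold for Aif1 to 1.92-fold for Ptprc. The WT embryo KOAC9-1 was the highest for 6 of the 10 genes, and the WT embryo KOAC10-7 the lowest for 5. KOAC9-1 was also the deepest library, while KOAC10-2, the shallowest, was the lowest for none. The coefficient of variation over the 7 embryos was 8.64% for Aif1, beside a counting error of 9.24% at its mean normalized count of 117. For the other members it was above the counting error, as for Csf1r with 15.0% beside 2.78% and for Mrc1 with 20.2% beside 2.90%. Pf4 stood apart with 47.3% beside 3.88%, as the plot of spread against counting error shows.

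**Figure D3:**
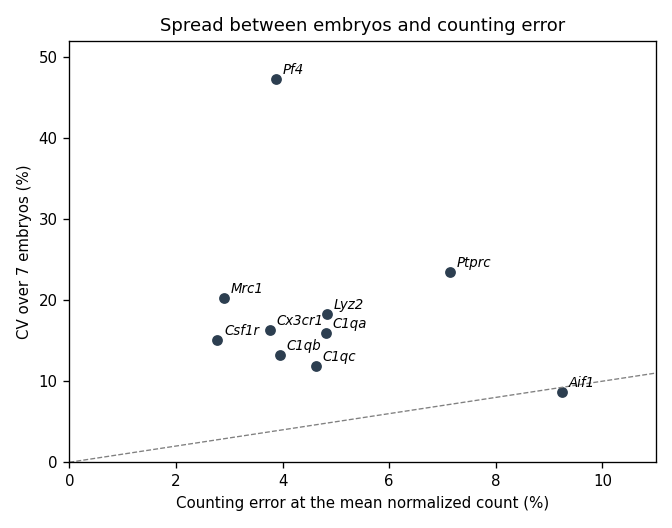
Coefficient of variation of FPKM over the 7 embryos (%) against the Poisson counting error (%) at the authors' mean normalized count, for each member. The dashed line marks equality, which Aif1 nearly meets at 8.64% beside 9.24%, and Pf4 lies highest at 47.3%.

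PF4 is a chemokine released from platelet granules, and its gene varied most of the 10. In order of level, Pf4 measured 13.1 FPKM in the KO embryo KOAC10-5, 15.2 in the WT embryo KOAC10-7, 18.0 in the WT embryo KOAC10-2, 34.4 in the KO embryo KOAC8-6, 36.6 in the KO embryo KOAC10-8, 39.2 in the WT embryo KOAC9-1 and 49.0 in the WT embryo KOAC8-1. Low and high embryos thus occurred in both genotypes, over a 3.75-fold range. The means were 28.02 ± 12.99 FPKM in KO (SD, n = 3) and 30.3 ± 16.4 FPKM in WT embryos (SD, n = 4). The difference of -0.078 (SE 0.51, 95% interval -1.28 to 1.12, adjusted p = 0.965) was well within the spread between embryos. It was -0.50 within the KOAC8 embryos and 0.39 within the KOAC10 embryos, so that its sign was not held.

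Other platelet genes were low in the same embryos. Ppbp measured 13.9, 3.49 and 12.5 FPKM in KO and 17.1, 5.14, 12.9 and 6.18 FPKM in WT embryos. Pf4 over Ppbp stayed between 2.86 and 3.04 in the 4 WT embryos, and ran from 2.47 to 3.75 in the KO embryos. Itga2b, the integrin chain that marks megakaryocytes (CD41), measured 12.9, 5.85 and 9.88 FPKM in KO and 13.7, 8.21, 11.9 and 9.35 FPKM in WT embryos. Of 22 megakaryocyte and platelet genes, 17 were tested, and for 14 of them, 82.4%, KOAC10-5, KOAC10-7 and KOAC10-2 were the 3 lowest embryos. This held for 7.12% of all genes tested, and for C1qc alone among the 8 tested members other than Pf4. These 3 embryos were singled out after their values had been seen. The tested exceptions were Gp1bb, part of the receptor for von Willebrand factor, the transcription factor gene Nfe2, and Thbs1, which is expressed well beyond platelets.

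Fetal liver genes were low in those 3 embryos too, and by far more. Afp, the main serum protein gene of the fetal liver and yolk sac, measured 255, 5.18 and 308 FPKM in KO and 376, 1.30, 278 and 2.49 FPKM in WT embryos. KOAC10-5, KOAC10-7 and KOAC10-2 were the 3 lowest for 9 of 10 liver genes, the exception being Ttr. The sum of the list varied 27.9-fold between embryos. Ttr was the 1 gene of this list without overlap of the genotypes, as was also so for 11.6% of all genes tested. It measured 14.4, 15.3 and 15.1 FPKM in KO and 46.4, 32.3, 53.1 and 35.3 FPKM in WT embryos. Ttr thus stayed at 32.3 and 35.3 FPKM in KOAC10-7 and KOAC10-2, where Afp was 1.30 and 2.49 FPKM. It cannot be read as a measure of liver here, and its source was not tested. The Ttr difference of -1.40 (SE 0.17, limma adjusted p = 0.0891) did not pass the adjusted threshold. The 22 platelet genes summed to 117, 59.8 and 103 FPKM in KO and 143, 74.1, 120 and 85.1 FPKM in WT, a 2.39-fold range. For the 9 members without Pf4 the sum varied 1.41-fold. With log2(Afp + 1) as a covariate, the Pf4 difference of KO against WT was -0.37 (SE 0.092, 95% interval -0.60 to -0.15), which did not pass over all genes (limma adjusted p = 0.289). The part of liver tissue in the Pf4 values was not tested.

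**Figure D4:**
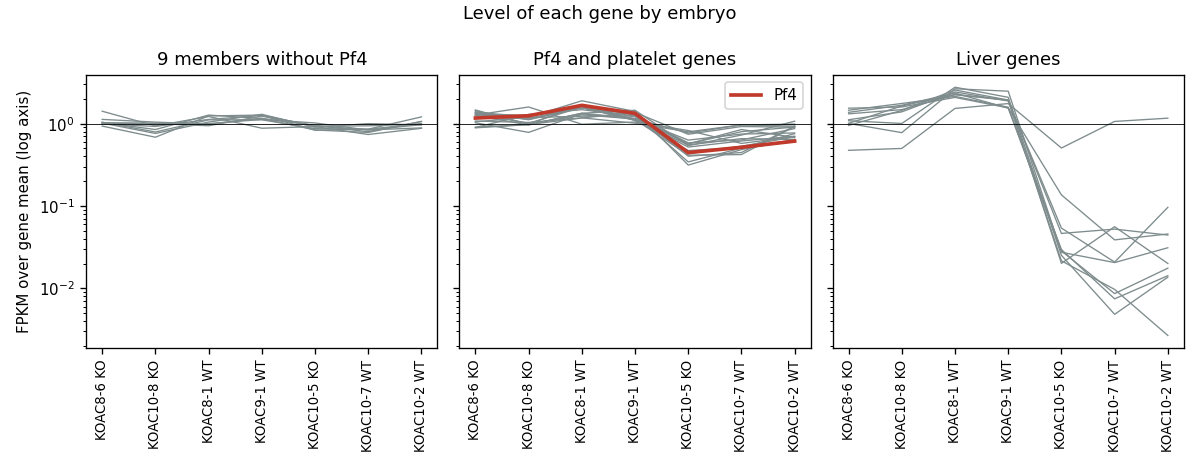
Level of each gene by embryo as FPKM over its mean of the 7 embryos (log axis), 1 line a gene, for the 9 members without Pf4, for Pf4 (red) with the 17 tested platelet genes, and for 10 liver genes. The 3 embryos at the right of each panel, KOAC10-5, KOAC10-7 and KOAC10-2, are the 3 lowest for Pf4, 14 of the 17 platelet genes and 9 of the 10 liver genes, and among the other 8 tested members for C1qc alone, and their place at the right was chosen after their values were seen.

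The sequences before the start sites of Pf4, Ppbp and C1qb are shown because Pf4 and Ppbp were low in the same 3 embryos while C1qb was not. They are the 250 bases before the RefSeq start on GRCm38.p6, written 5′ to 3′ on the strand of the gene. They run over chr5:90772185-90772434 on the plus strand for Pf4, chr5:90768268-90768517 on the plus strand for Ppbp and chr4:136886201-136886450 on the minus strand for C1qb. Capitals mark the letters GAGGAA, the core bound by PU.1, on either strand.
Pf4: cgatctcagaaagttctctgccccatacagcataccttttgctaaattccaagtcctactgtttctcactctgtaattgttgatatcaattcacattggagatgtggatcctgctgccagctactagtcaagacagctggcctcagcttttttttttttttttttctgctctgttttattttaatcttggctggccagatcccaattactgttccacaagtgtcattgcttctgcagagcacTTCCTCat
Ppbp: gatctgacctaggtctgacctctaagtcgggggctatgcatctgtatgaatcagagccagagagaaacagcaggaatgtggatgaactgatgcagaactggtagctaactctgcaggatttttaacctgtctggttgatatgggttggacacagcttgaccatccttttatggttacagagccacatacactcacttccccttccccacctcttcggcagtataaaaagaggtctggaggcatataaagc
C1qb: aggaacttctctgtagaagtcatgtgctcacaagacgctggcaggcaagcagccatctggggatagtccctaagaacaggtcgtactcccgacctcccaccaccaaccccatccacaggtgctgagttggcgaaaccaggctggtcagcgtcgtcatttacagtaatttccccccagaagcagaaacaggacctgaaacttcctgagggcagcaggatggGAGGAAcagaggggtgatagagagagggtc
Pf4 held 1 match, on the opposite strand as TTCCTC, 8 bases before the start. C1qb held 1 match, 30 bases before the start, and Ppbp held none.

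RefSeq windows were at hand for 8 of the 10 members, 9 windows in all with 2 for Ptprc, which overlap each other. Some windows lie partly in exons of the same gene by GENCODE, with 250 of the 250 bases for Cx3cr1, 162 for 1 window of Ptprc, 151 for C1qc and, among the platelet genes below, 180 for Itga2b, so that they are not all promoters by that annotation. GAGGAA or its complement occurred in 6 of the 9, beside 23.3% of all 32851 promoter windows of this length. Mrc1 held 3 matches, 180, 167 and 35 bases before the start, and Aif1 held 1 at 7 bases. The letters AGATAA, 1 form of the site bound by GATA factors, were in 1 of the 9 windows, of Ptprc, and in 9.99% of all windows. Other forms of that site were not searched, so that the count does not measure GATA sites as a whole. TGACTCA, bound by AP-1, was in 0 of the 9 and in 4.46% of all windows. Both strands were searched, and the 3 motifs do not contain one another. Of 5 platelet genes (Tubb1, Ppbp, Gp9, Plek and Itga2b), 4 held GAGGAA and 0 held AGATAA in their windows. These genes were picked without a rule, and all had the same 3 lowest embryos as Pf4. The counts therefore do not stand for the whole list of platelet genes.

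None of the other 24 macrophage genes passed the adjusted threshold either, of which 14 were tested. At an unadjusted p under 0.05, 1 was higher and 1 lower in KO embryos, and 3 of the 14 had no overlap between genotypes. Over all genes tested the shares were 11.5% and 11.6%, so that these counts of 2 and 3 in so short a list are near the background. Mertk, a receptor for the uptake of dying cells, measured 7.38, 7.44 and 7.47 FPKM in KO and 6.20, 6.94, 6.40 and 6.11 FPKM in WT embryos, a difference of 0.19 (SE 0.063, adjusted p = 0.363). Lyve1, a hyaluronan receptor of tissue macrophages and lymphatic vessels, measured 1.21, 1.32 and 1.26 FPKM in KO and 2.48, 1.85, 3.28 and 1.37 FPKM in WT embryos. The KO embryos were all below the WT embryos at 56.2% of their mean (difference -0.49, SE 0.19, adjusted p = 0.418). Tmem119, known from microglia and from bone-forming cells, was likewise lower in each KO embryo (difference -0.093, adjusted p = 0.481). At 25.4 FPKM it was the most abundant of this list, and it is not restricted to macrophages. The median difference of the 14 tested genes was -0.089. Fcer1g, Tyrobp and Laptm5, which encode signalling and lysosomal proteins of myeloid cells, had overlapping genotypes, with differences of -0.24, -0.14 and 0.049.

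Of 9 transcription factor genes of macrophages, 0 passed the adjusted threshold. Spi1 differed by 0.11 (adjusted p = 0.8) and Maf by -0.23, both with overlap between the genotypes. Id3, an inhibitor of basic helix-loop-helix factors with many sources in the embryo, was the one of the 9 with an unadjusted p under 0.05, a share near the 11.5% of all genes tested. It was higher in every KO embryo, with a difference of 0.13 (SE 0.052, adjusted p = 0.417). The ligands of the receptors also overlapped between genotypes. Csf1, one ligand of CSF1R, differed by -0.11 (adjusted p = 0.738), and Cx3cl1, the ligand of CX3CR1, by -0.14 (adjusted p = 0.759). Il34, the other ligand of CSF1R, was between 0.0939 and 0.191 FPKM and was not tested.

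Of 11 complement partners of C1q in the table, 6 were tested and 0 passed the adjusted threshold. C1s1, a protease of the C1 complex, measured 2.62, 1.49 and 3.27 FPKM in KO and 1.80, 0.934, 1.72 and 0.813 FPKM in WT embryos (difference 0.57, SE 0.24, adjusted p = 0.427). Its 3 lowest embryos were the same as for Pf4. C3, the central component, did likewise over a 44.6-fold range, from 5.31 FPKM in KOAC8-1 to 0.119 FPKM in KOAC10-7, as did Cfb over a 3.37-fold range. Serping1, the C1 inhibitor gene, differed by -0.045. C1qc had the same 3 lowest embryos by rank, as had 7.12% of all genes tested, but over a 1.38-fold range only.

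Among the genes whose levels over the 7 embryos were most like the mean z-score of the 10 members were Emc9 (Pearson r = 0.987), Vps26b (0.984), Clu (0.972), S100a9 (0.972), Ass1 (0.968), Gclm (0.967) and Nrgn (0.965). They are among the highest of 16095 correlations over only 7 points, from libraries that differ in depth, and are given as a description. S100a9, a gene of neutrophils and monocytes, measured 12.8, 6.30 and 7.52 FPKM in KO and 10.9, 4.03, 17.0 and 8.87 FPKM in WT embryos. Like Csf1r, it was highest in KOAC9-1. Among the members themselves, the likeness to that mean was greatest for Csf1r (0.943) and Lyz2 (0.915) and least for Ptprc (0.520), each being part of the mean.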

How the data were processed

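Whole E11.5 embryos, 3 KO and 4 WT, were grouped by the deposited labels, and 0 FPKM columns were left unmapped. FPKM values were made by the authors from libraries of the TruSeq RNA v2 kit; the submitters' processing notes name Salmon, DESeq2, MultiQC and GRCm38, without versions. The authors also deposited a mean signal per gene (counts divided by size factors, averaged over embryos), used here as the mean normalized count, and their own fold changes, standard errors and p-values, which were not used.

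From FPKM, log2(FPKM + 1) was fitted with limma 3.58.1 in R 4.3.3 (lmFit, eBayes with trend, no covariate) for the 16095 genes whose mean reached 1 FPKM, with Benjamini-Hochberg adjustment over all of them and a threshold of 0.05. This scale understates differences of low genes. Single values were compared by exact two-sided permutation tests over the 35 placements of 3 among 7 embryos. The p-values measure the spread between single embryos. Fits were tested on simulated data. Relative depth was estimated from low normalized values (FPKM times the ratio of mean normalized count to mean FPKM). Of these, 62.6% to 79.1% per embryo lay within 0.05 of a whole number after scaling, beside 10% by chance, and the reads on genes were estimated at 54000000 to 81700000. A count test was not run, since the remaining values did not come out whole. Counting error is the Poisson error at the mean normalized count and covers counting only.

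Members and 9 further gene lists were chosen with earlier results of these data known. Named genes were Slmap, the members, in each list the 4 most abundant genes and those above 1 FPKM in the mean whose KO values all lay outside the WT range, and the 8 genes most like the members' mean z-score. Other genes were named after their values were seen, and some genes that the rule takes are not reported here. Sequences are from RefSeq, positions from GENCODE M21. The alternatives, 19 settings, were other pseudocounts (0.1, 0.01), filters, scalings, covariates and variance models, and leaving out each embryo.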

Additional observations from a re-analysis of the deposited data

Results flagged for a closer look

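Fcer1g, the signalling chain shared by Fc receptors of myeloid cells, had 1 WT embryo apart from the other 3. KOAC9-1 measured 10.1 FPKM and the other WT embryos 8.99 to 9.19 FPKM, a gap of 0.83 of the whole WT range, which is just past the limit of Dixon's test for 4 values. It was the only one of 54 genes screened, of which chance would flag about 1 in 20, or 2.7 genes.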

How the results depend on the processing

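Under each of the 19 alternatives, 0 members had an adjusted p under 0.05, and the median log2 difference of the members stayed negative, from -0.27 to -0.078 beside -0.16. The log2 differences of Csf1r, Mrc1, C1qa, Lyz2 and Cx3cr1 stayed negative and those of C1qc and Ptprc positive in all settings that gave a value. Their sizes moved by over 1.5 times when 1 embryo was left out: Mrc1 from -0.36 to -0.19 (without KOAC10-8), Csf1r from -0.25 to -0.091 (without KOAC9-1), C1qa from -0.32 to -0.14 (without KOAC10-8), Lyz2 from -0.31 to -0.11 (without KOAC8-1), Cx3cr1 from -0.27 to -0.12 (without KOAC10-8), C1qc from 0.037 (without KOAC10-7) to 0.17 and Ptprc from 0.0052 (without KOAC8-6) to 0.17. Over all genes, 6 passed the adjusted threshold, 10 with log2 Afp as a covariate, and 7 to 12 when 1 embryo was left out, the most without KOAC8-1. Members with an unadjusted p under 0.05 were 0, but 3 with log2 Afp as a covariate (Csf1r, Mrc1 and Pf4). When 1 embryo was left out they were 0 to 3, 3 without KOAC10-7 (Mrc1, C1qa and Lyz2). The share of all genes at that level was 11.5% in the fit without a covariate on all embryos. It was not counted in the other settings, so that these counts of members have no background beside them. The differences near 0 changed sign. Pf4, at -0.078, was 0.095 with the label series as a block, 0.13 with embryo quality weights and -0.34 to 0.38 when 1 embryo was left out (0.38 without KOAC10-5, 0.20 without KOAC8-1, 0.095 without KOAC9-1). C1qb, at -0.016, was 0.079 with the block, 0.016 with the weights and -0.11 to 0.079 when 1 embryo was left out (0.010 without KOAC10-5, 0.079 without KOAC9-1, 0.011 without KOAC10-2). The block and leaving out KOAC9-1 gave the same estimates and are not separate reversals. KOAC9-1 is the only embryo of its series, and the other series hold as many KO as WT embryos. Aif1 ran from -0.011, without KOAC10-7, to 0.095. The cause was not tested. Median-ratio size factors changed nothing, since the deposited values were already scaled that way. Where 1 embryo was left out of the KO group, 2 remained, and the width of the intervals limits what could be detected, from -1.28 to 1.12 on the log2 scale for Pf4, the widest, to -0.17 to 0.25 for Aif1, the narrowest.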

Other observations

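Erythroid genes, among them those of haemoglobin, were the most abundant of the 9 lists beside the members, and their sum was 16971 ± 2382 FPKM in KO (SD, n = 3) and 24190 ± 2337 FPKM in WT embryos (SD, n = 4). Hbb-bt, an adult-type beta globin gene, was at 29.0% of WT (difference -1.70, SE 0.33, limma adjusted p = 0.274), Hba-a1 at 54.0% and the embryonic Hbb-y at 67.4%. None of them passed the adjusted threshold. Each was without overlap of the genotypes, as were 11.6% of all genes tested. The embryonic Hbb-bh1 went the other way, at 143% of WT (difference 0.51, adjusted p = 0.555), and Hba-x was at 93.0%, both with overlapping genotypes. Of the 9 erythroid genes tested, 8 differences were negative and 1 positive. Over all genes tested, 7541 differences were negative and 8554 positive. Of the sums of these lists, that of endothelial genes varied least between embryos, by 1.12-fold. Pecam1, an adhesion protein gene of vessels, and Kdr and Tek, growth factor receptor genes of endothelial cells, were higher in each KO embryo by 0.12, 0.19 and 0.12 on the log2 scale (limma adjusted p = 0.405, 0.286 and 0.472). Cldn5, a tight junction gene, was at 88.8% of WT and the cadherin gene Cdh5 at 99.2%. Of 8 endothelial genes tested, 6 differences were positive and 2 negative, and 3 had no overlap between genotypes, as had 11.6% of all genes tested.

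P2ry12, a purine receptor of microglia named here after its values were seen, measured 0.441, 0.580 and 0.789 FPKM in KO and 1.08, 0.733, 1.69 and 1.36 FPKM in WT embryos. The genotypes overlapped through KOAC10-8 and KOAC10-7 (exact permutation test, p = 0.0857), and the gene was below the level for testing. Among myeloid genes of the other blood cells, the granule genes Prtn3 and Mpo were at 123% and 85.0% of WT, and S100a8 and S100a9 at 77.3% and 87.0%. The genotypes of all 4 overlapped, and none had a limma adjusted p under 0.05.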
